A study of Mus musculus with 4 samples.

Results

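Bcl2l14, which encodes the Bcl-2 family protein Bcl-G, was examined together with 7 genes that lie around it on mouse chromosome 6, namely Etv6, Lrp6, Mansc1, Dusp16, Crebl2, Gpr19 and Cdkn1b. The question was whether the higher Bcl2l14 signal of G9a-deficient liver was local to that gene or extended to its neighbours. Bcl2l14 was chosen by its higher signal in this very contrast, so that its values are given as a description with no test. The neighbours are genes placed from Etv6 to Cdkn1b, but not every gene of that stretch is among them, and Borcs5, which lies within it, is given separately. Each gene was followed at every probe set (a group of short probes for 1 transcript) that the array annotation gives to that symbol alone, which came to 8 of 18193 genes and 15 of 34945 probe sets that name 1 gene.

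RNA of non-tumorous liver was hybridised to GeneChip Mouse Genome 430 2.0 arrays, with 1 array for each of 2 WT mice (Alb-Cre; G9a+/+) and 2 G9aKO mice (Alb-Cre; G9aflox/flox). All mice carried Cre under the albumin promoter, which is active in hepatocytes. Which other liver cells kept G9a was not measured on these arrays. All mice were males of a C57BL/6 background and 30 weeks old; they had received diethylnitrosamine (DEN), a DNA-damaging liver carcinogen, at 25 mg/kg on day 15 of life, followed by 22 weekly injections of carbon tetrachloride (CCl4), a hepatotoxin, at 0.5 ml/kg in corn oil. No mice without DEN and CCl4 were part of the series. In whole liver RNA, fewer cells of a type and less RNA per cell cannot be told apart.

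G9a, encoded by Ehmt2, places methyl groups on lysine 9 of histone H3, a mark found at silenced genes, and such marks can spread over several neighbouring genes or stay at a single promoter. Bcl-2 family proteins decide at the mitochondrion whether a damaged cell dies by apoptosis, and Bcl-G is counted among the death-promoting members. The genes around Bcl2l14 belong to unrelated pathways: Cdkn1b encodes the cell cycle inhibitor p27, Lrp6 a Wnt co-receptor, Dusp16 a phosphatase of MAP kinases, Gpr19 an orphan G protein-coupled receptor, Etv6 a transcriptional repressor of the ETS family, Crebl2 a leucine zipper protein related to CREB, and Mansc1 a membrane protein.

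The promoters of the locus differed in sequence. RefSeq windows of GRCm38.p6, each from 250 bases before to 50 after a transcription start, were at hand for 5 of the 8 genes. The 2 windows of Bcl2l14 are shown with those of Etv6, the flanking gene on one side, and Cdkn1b at the other end, because Bcl2l14 is the gene in question and the other genes bound the stretch, and they differ in CG dinucleotides, the site of DNA methylation. Capitals mark each CG, and every window is written 5′ to 3′ on the strand of its gene. The window of the first Bcl2l14 start is chr6:134396079-134396378 on the plus strand, that of the second is chr6:134414178-134414477 on the plus strand, that of Etv6 is chr6:134035450-134035749 on the plus strand, and that of Cdkn1b is chr6:134920151-134920450 on the plus strand.
Bcl2l14 start 1: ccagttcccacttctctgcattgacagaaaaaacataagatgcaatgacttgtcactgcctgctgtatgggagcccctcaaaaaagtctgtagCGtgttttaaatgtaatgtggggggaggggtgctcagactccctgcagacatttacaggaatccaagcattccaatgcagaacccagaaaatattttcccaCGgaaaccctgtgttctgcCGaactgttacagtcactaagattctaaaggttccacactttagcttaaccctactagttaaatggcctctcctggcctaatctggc
Bcl2l14 start 2: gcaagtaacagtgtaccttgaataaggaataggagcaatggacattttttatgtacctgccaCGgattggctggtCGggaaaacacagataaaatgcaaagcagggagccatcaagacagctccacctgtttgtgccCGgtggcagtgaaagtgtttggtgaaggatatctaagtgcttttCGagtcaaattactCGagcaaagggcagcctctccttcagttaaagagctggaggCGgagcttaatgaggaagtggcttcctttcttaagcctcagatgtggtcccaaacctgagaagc
Etv6: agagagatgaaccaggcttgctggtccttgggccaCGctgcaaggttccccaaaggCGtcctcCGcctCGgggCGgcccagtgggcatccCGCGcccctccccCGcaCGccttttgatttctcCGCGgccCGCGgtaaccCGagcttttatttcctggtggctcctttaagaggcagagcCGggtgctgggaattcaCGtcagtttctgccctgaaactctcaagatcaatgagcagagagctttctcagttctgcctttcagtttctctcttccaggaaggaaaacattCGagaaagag
Cdkn1b: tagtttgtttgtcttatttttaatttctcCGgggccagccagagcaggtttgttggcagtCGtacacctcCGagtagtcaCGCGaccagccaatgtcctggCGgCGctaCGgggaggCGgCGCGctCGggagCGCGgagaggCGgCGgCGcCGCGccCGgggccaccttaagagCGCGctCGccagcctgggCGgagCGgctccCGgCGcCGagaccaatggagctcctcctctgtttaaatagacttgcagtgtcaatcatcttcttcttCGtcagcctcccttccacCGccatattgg

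The first Bcl2l14 window held 3 CG and the second 6, against a median of 7 and quartiles of 3 and 20 over 32851 windows of the same length. Fewer CG were found in 23.3% of all windows than in the first and in 43.6% than in the second, and their GC contents were 45.7% and 47.3%. The Etv6 window held 17 CG, with 68.6% of all windows below it. The windows of Dusp16 (28 CG) and Cdkn1b (30 CG) were richer still, with 85.8% and 88.3% of all windows below them and a GC content of 62.0% for Cdkn1b. Gpr19 has 4 annotated starts, and the windows held 19, 24, 3 and 2 CG. Both Bcl2l14 windows were therefore poor in CG beside those of Etv6, Dusp16 and Cdkn1b, whereas Gpr19 had starts of both kinds.

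**Figure D1:**
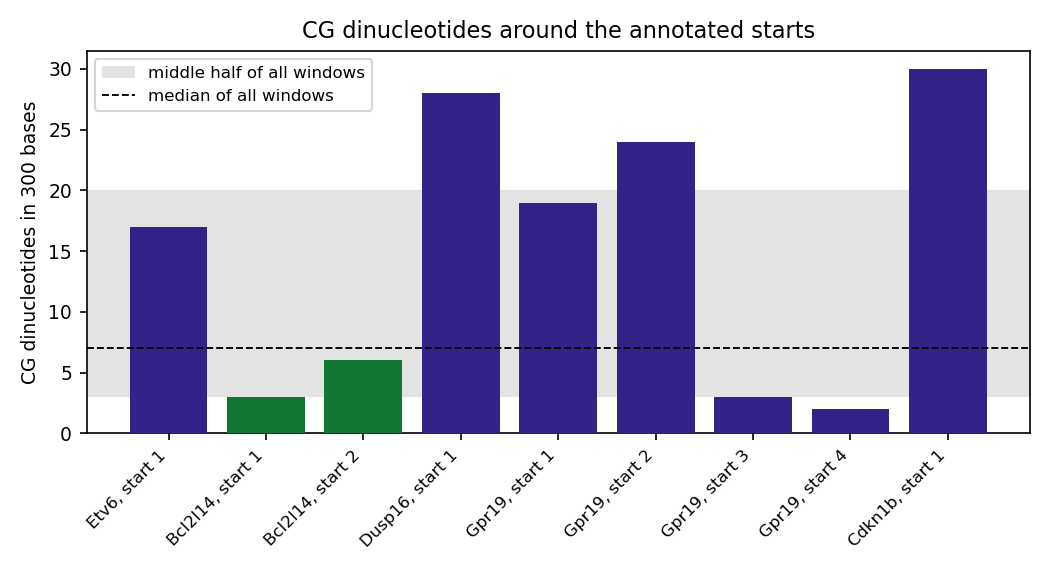
Bars give the number of CG dinucleotides in each 300-base RefSeq promoter window (GRCm38.p6) of the genes with a window, and the line and band give the median of 7 and the quartiles of 3 and 20 over 32851 windows. The bars of Bcl2l14 (3 and 6) lie under the median, whereas those of Etv6 (17), Dusp16 (28) and Cdkn1b (30) lie above it.

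Short motifs were searched on both strands. The decamer of the p53 response element was found in none of the windows of the 5 genes and in 8.36% of all windows, whereas the first window of Cdkn1a, a classical p53 target elsewhere in the genome, held 2. The TATA box (TATAAA) and the E-box (CACGTG) were also found in none of them, against 13.6% and 7.15% of all windows. A CCAAT box occurred once in each Bcl2l14 window and 3 times in that of Cdkn1b, against 37.4% of all windows with at least 1. The ETS core GGAA, present in 96.0% of all windows and thus hardly selective, occurred 6 times in the first Bcl2l14 window and 4 times in the second. These are letter matches within short windows and say nothing of binding, nor of sites further away.

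Signals are MAS5 intensities on a linear scale, and each comes with a call of Present, Marginal or Absent. The share of probe sets called Present was 41.3 to 43.9% per array, and 95% of Absent probe sets lay under 170.5 to 180.9, so that signals in that range are uncertain. Arrays of 1 genotype correlated at 0.970 and 0.971, and arrays of different genotypes at 0.959 to 0.967, over 17158 probe sets that name 1 gene and were Present on at least 2 arrays. Ehmt2 was Present in WT liver, with signals of 640.4 and 492.5, and Absent in G9aKO liver, with 174.1 and 163.7, which makes WT liver at least 3.33-fold higher (limma adjusted p = 0.0612). This probe set entered the fit only through the WT arrays. Whether it lies in the deleted exons is not known here, and the other probe set of Ehmt2 was Absent on all 4 arrays. In a limma fit over the 17158 probe sets, 40 were higher and 8 lower in G9aKO liver at an adjusted p under 0.05, or 39 and 19 when each array was centred on its median. This is 0.28% of those tested, and 1598 had an unadjusted p under 0.05.

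At each of the 2 Bcl2l14 probe sets both G9aKO arrays lay above both WT arrays, as they did at 21.7% of all probe sets tested. Of 10350 genes at their brightest probe set, 64 had a larger log2 difference than Bcl2l14. At 1424814_a_at the WT signals were 163.6 and 257.7, both called Absent, and the G9aKO signals were 737.7 and 953.8, both Present. The groups did not overlap, and the lower G9aKO array was far above the higher WT array. The means were 211 ± 66.5 (SD, n = 2) and 846 ± 153 (SD, n = 2). Since the WT level is only a bound, G9aKO liver was at least 4.08-fold higher, taken between the means of log2 signals as for every bound given here. At 1429347_at the WT signals were 13.41 (Absent) and 72.83 (Present), and the G9aKO signals were 334.6 and 372.8 (both Present). The first WT signal lay under the lowest signal that was called Present on its array, 21.1, so that the difference of 3.50 on the log2 scale rests on a signal with no measurable level. Setting single arrays against each other gave log2 differences of 1.52 to 2.54 at the first probe set and 2.20 to 4.80 at the second. These are the values by which the gene was selected.

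**Figure D2:**
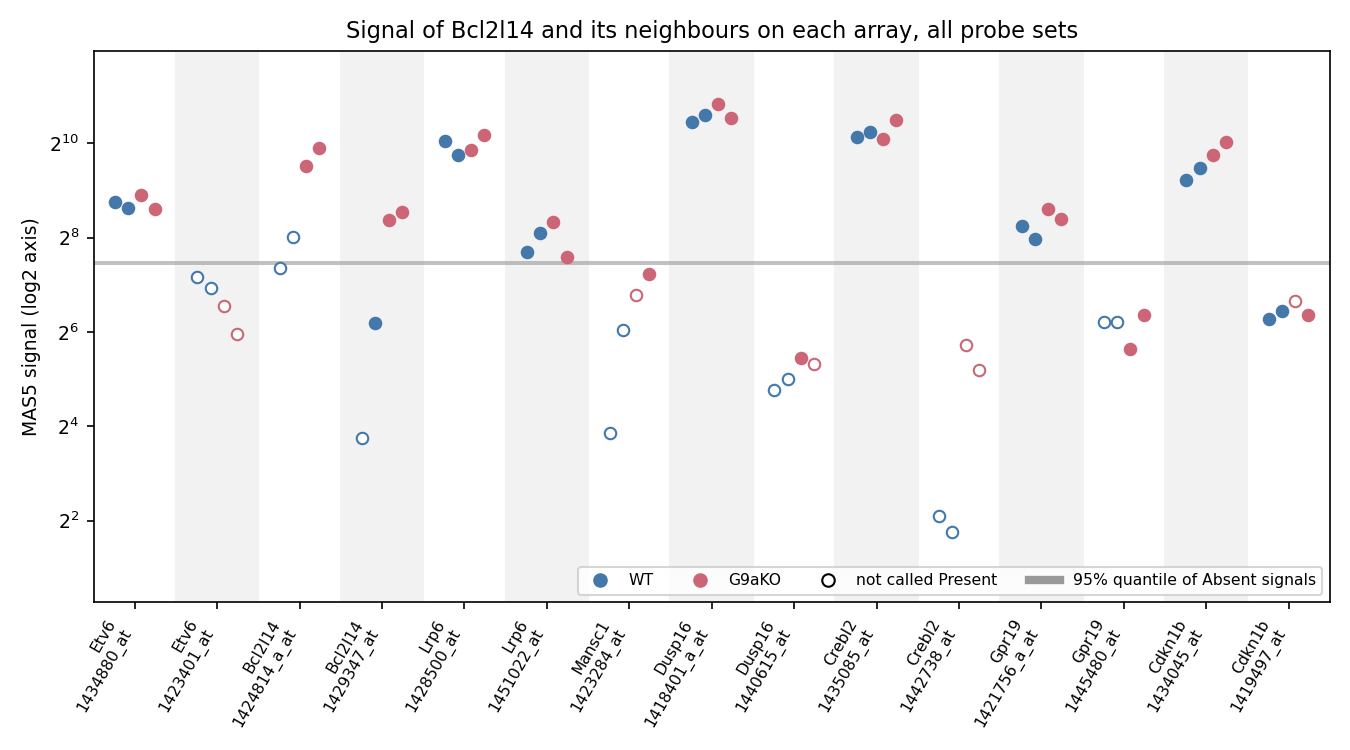
Points give the MAS5 signal (linear units on a log axis) of each of the 4 arrays at every probe set of the 8 genes, by genotype, with open points where the probe set was not called Present and a grey line at the level under which 95% of Absent signals lay. The WT and G9aKO points are far apart at both Bcl2l14 probe sets and interleave at most probe sets of the neighbours that were called Present.

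The neighbours had 13 probe sets, of which 9, from 6 genes, were Present on at least 2 arrays and entered the limma fit. None of the 9 passed an adjusted p of 0.05 in either direction (0 higher, 0 lower), against 0.28% of all probe sets, so that the count does not differ from the background. By the methods' t-test 0 of the 9 had an unadjusted p under 0.05, against 1352 of 17158 probe sets tested. In limma 1 of the 9 did so, against 1598 of 17158. Both G9aKO arrays lay above both WT arrays at 2 of the 9, against 21.7% of all probe sets tested, and both lay below at 0, against 19.4%. Borcs5, from the same stretch but not one of the 7, had both G9aKO arrays below both WT arrays. At the other 7 the groups overlapped. The median log2 difference over the 9 was 0.11, with a range of -0.22 to 0.54, against a median of 0.02 over all probe sets tested. Of the 9, 8 were above 0, against 9054 of 17158 probe sets tested. When each array was centred on its median 4 of the 9 were, and centring moved the median of all probe sets from 0.02 to -0.11.

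The cell cycle inhibitor Cdkn1b, which restrains the cyclin-dependent kinases that drive entry into S phase, had the highest value among the 9. Its brighter probe set, 1434045_at, gave 597.9 and 710.1 in WT liver and 863.0 and 1041 in G9aKO liver, all Present. The groups did not overlap, with means of 654 ± 79.3 and 952 ± 126 (SD, n = 2 each). The log2 difference of 0.54 (SE 0.19) had an unadjusted p of 0.0250 and an adjusted p of 0.459 in limma, so that it did not pass. The dimmer probe set, 1419497_at, gave 77.92 and 87.34 in WT and 100.5 (Absent) and 82.65 in G9aKO liver. There the groups overlapped, with a log2 difference of 0.14 (SE 0.39, limma adjusted p = 0.937). The probe sets of Cdkn1b thus differed in whether the groups separated, and the dimmer one lay wholly in the range of Absent signals.

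Among the receptors, Lrp6, which with Frizzled proteins receives Wnt ligands, was Present on all 4 arrays at both probe sets. At 1428500_at it gave 1065 and 868.6 in WT liver and 925.2 and 1160 in G9aKO liver. At 1451022_at it gave 208.2 and 273.9 in WT and 324.3 and 192.7 in G9aKO liver. The groups overlapped at both, with log2 differences of 0.11 (SE 0.19, limma adjusted p = 0.898) and 0.07 (SE 0.33, limma adjusted p = 0.966). The spread within a genotype was as wide as that between genotypes at either probe set.

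Gpr19, whose ligand is unsettled, gave 306.3 and 252.6 in WT liver and 388.4 and 339.3 in G9aKO liver at 1421756_a_at, all Present. The groups did not overlap, and the log2 difference of 0.38 (SE 0.23) did not pass (limma adjusted p = 0.652). At 1445480_at the WT signals of 74.31 and 74.35 were called Absent, whereas the G9aKO signals of 49.63 and 82.32 were called Present, and they lay on both sides of the WT signals. The fitted log2 difference there was -0.22 (SE 0.48, limma adjusted p = 0.917), with a WT level that is only a bound, so that no fold is given.

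The phosphatase Dusp16, which dephosphorylates JNK and p38 kinases, was bright at 1418401_a_at, with 1396 and 1550 in WT liver and 1817 and 1479 in G9aKO liver. The groups overlapped (log2 difference 0.16, SE 0.16, limma adjusted p = 0.798). A second probe set, 1440615_at, was dim, with 27.43 and 32.2 in WT (both Absent) and 43.99 (Present) and 40.27 (Marginal) in G9aKO liver. The ratio of 1.42 is not a lower bound, because 1 of the G9aKO signals was not called Present. This probe set was Present on 1 array only and did not enter the fit.

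Etv6, a repressor that the blood-forming system needs, gave 434.9 and 393.6 in WT liver and 476.5 and 388.2 in G9aKO liver at 1434880_at, all Present. The G9aKO arrays lay on both sides of the WT arrays, and the log2 difference was 0.06 (SE 0.21, limma adjusted p = 0.952). The other probe set, 1423401_at, was Absent throughout, with 143.6 and 122.4 in WT and 94.3 and 61.83 in G9aKO liver, and no fold is given.

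Crebl2 gave 1131 and 1204 in WT liver and 1087 and 1452 in G9aKO liver at 1435085_at, all Present. The groups overlapped (log2 difference 0.11, SE 0.19, limma adjusted p = 0.893). The signs for Etv6, Lrp6 and Crebl2 depended on the scaling, since centring the arrays turned the differences at the brightest probe sets to -0.070, -0.019 and -0.019. Over all probe sets tested, centring gave a median of -0.11. With quantile normalization Lrp6 (0.086) and Crebl2 (0.095) stayed above 0, and Etv6 was at -0.017. The second probe set of Crebl2, 1442738_at, gave 4.292 and 3.387 in WT and 52.62 and 36.65 in G9aKO liver and was Absent on all 4 arrays. The nominal log2 difference was 3.53, as large as that of Bcl2l14, between signals that were not detected, so that no fold is given.

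Mansc1 was near the detection limit at its single probe set, 1423284_at. It gave 14.53 and 65.99 in WT liver, both Absent, and 110.7 (Absent) and 149.1 (Present) in G9aKO liver. The groups did not overlap, with means of 40.3 ± 36.4 and 130 ± 27.1 (SD, n = 2 each). Between the means of log2 signals, with the first WT signal raised to the lowest Present signal of its array, the ratio was 3.44. With 1 of the G9aKO signals Absent as well, this ratio is not a lower bound. None of the 4 signals exceeded the level under which 95% of Absent probe sets of its array lay, and single arrays set against each other differed by 0.75 to 3.36 on the log2 scale. Having 1 Present call, it did not enter the fit.

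**Figure D3:**
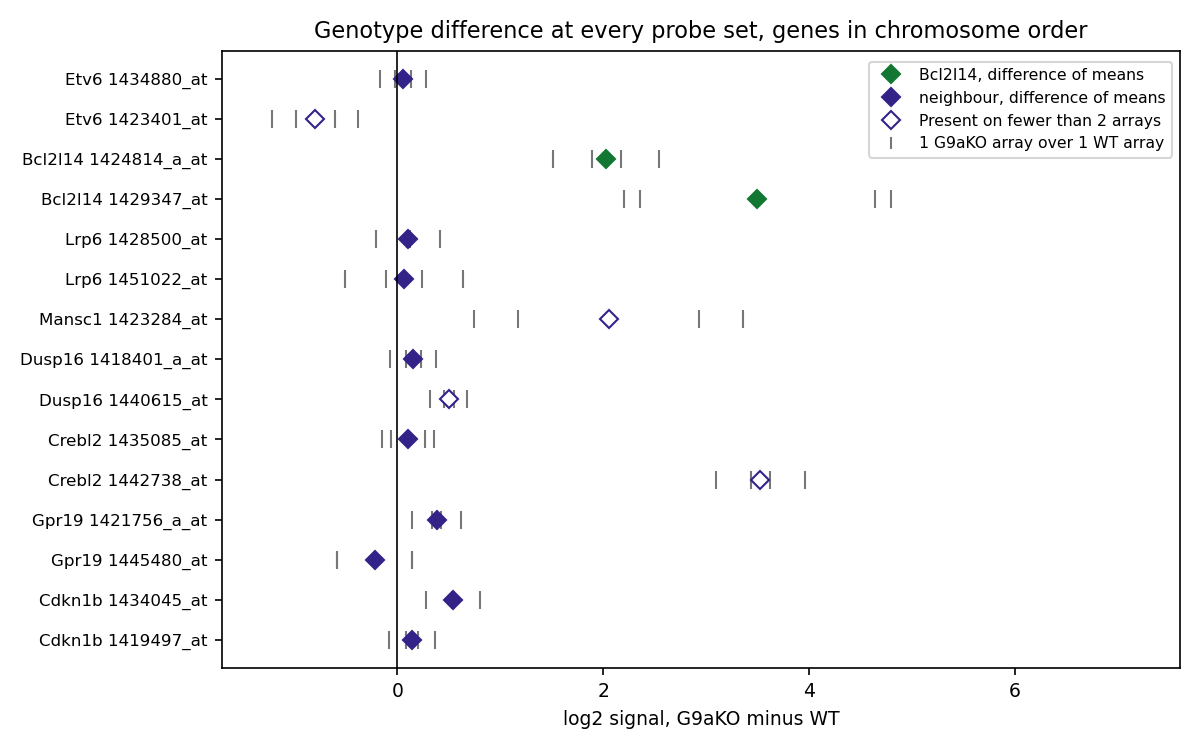
Diamonds give the difference of mean log2 signals, G9aKO minus WT, at the 15 probe sets in chromosome order, open where fewer than 2 arrays were Present, and ticks give each G9aKO array over each WT array. The tested neighbour probe sets lie between -0.22 and 0.54, whereas Mansc1 (2.05) and the dimmer Crebl2 probe set (3.53) reach the range of Bcl2l14 (2.03 and 3.50) without detection on 2 arrays.

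Differences of this size were less rare where few arrays were Present. A log2 difference of 2 or more in favour of G9aKO liver was seen at 4.77% of 15439 probe sets that were Present on no array and at 4.60% of 2348 that were Present on 1. The share was 3.81% of 1575 probe sets Present on 2 arrays, 0.714% of 1541 Present on 3 and 0.171% of 14042 Present on all 4. The dimmer Crebl2 probe set was Present on no array, Mansc1 on 1, the brighter Bcl2l14 probe set on 2 and the dimmer one on 3.

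Between Etv6 and Cdkn1b the RefSeq table of GRCm38.p6 lists 20 genes with both included, 9 of them protein coding and 11 long noncoding RNAs, and 3 that are not among the 8 have a probe set of their own. Borcs5, a subunit of the complex that positions lysosomes, gave 591.0 and 589.7 in WT liver and 442.8 and 380.5 in G9aKO liver at 1451918_a_at, all Present. Both G9aKO arrays lay below both WT arrays, the opposite of Bcl2l14, with a log2 difference of -0.52 (SE 0.19) and an unadjusted p of 0.0286 that did not pass adjustment (limma adjusted p = 0.476). The noncoding genes 2810454H06Rik and Gm38910 were Absent on all 4 arrays. A noncoding gene on the opposite strand, 4933406J09Rik, overlaps the 5′ part of Bcl2l14 in this table. It was not analysed here because its identifier in the array annotation differs from that in RefSeq.

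Over a wider stretch, 25 tested genes on each side of Bcl2l14 were taken in chromosome order, each at its brightest probe set. Of these 50 genes 0 were higher and 1 was lower at an adjusted p under 0.05 over 10350 genes, of which 0.386% passed in either direction. The gene that passed was Clec2h, a C-type lectin gene, with 511.1 and 452.0 in WT liver and 63.32 and 44.22 in G9aKO liver (log2 difference -3.18, SE 0.31, limma adjusted p = 0.0311), and it no longer passed when either WT array was left out. It is the 15th tested gene before Bcl2l14, with Etv6 and others between. The highest value of the stretch was 1.21 for Parp11 (limma adjusted p = 0.301), a mono-ADP-ribosyltransferase, named after its value was seen. The median log2 difference was 0.17 over the 25 genes before Bcl2l14 and 0.10 over the 25 after it, against 0.02 over 534 genes of chromosome 6 and 0.02 over all genes. Of the 50, 31 were above 0, against 5528 of 10350 genes. With each array centred on its median 25 of the 50 were, against 3682 of 10350 genes, whose median was then -0.10.

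**Figure D4:**
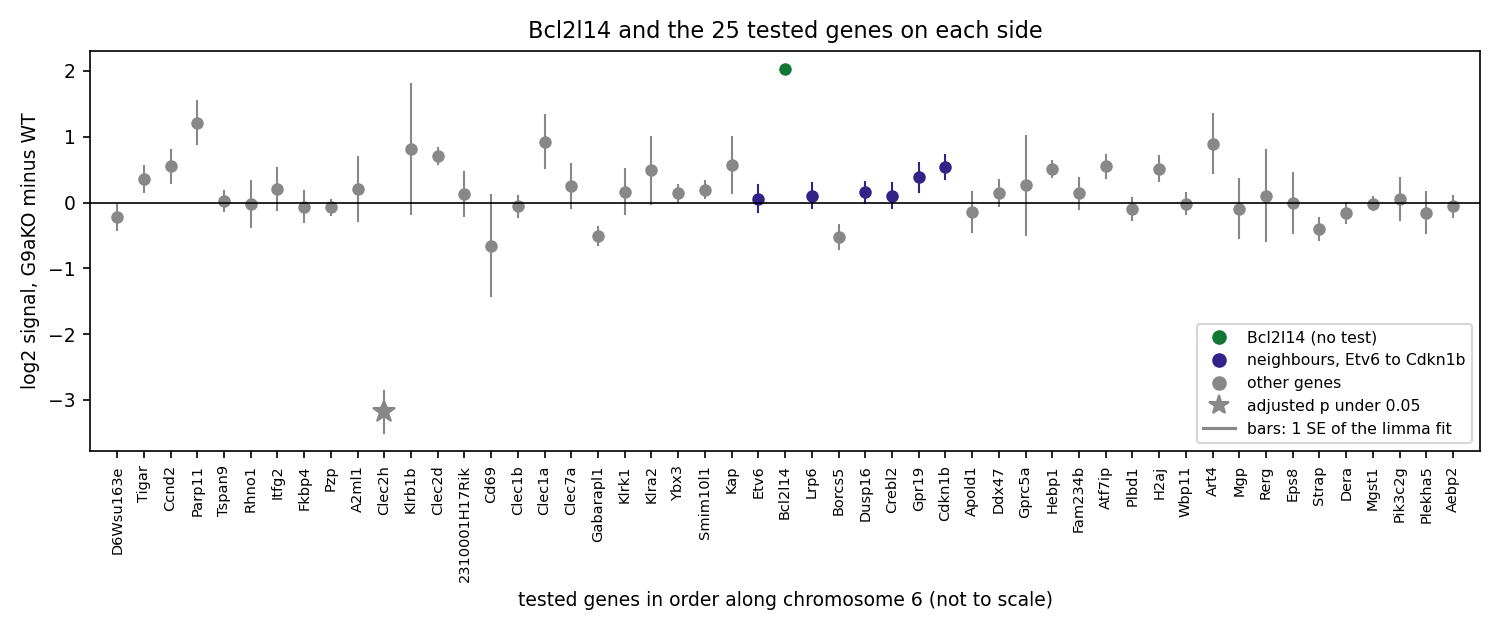
Points give the log2 difference, G9aKO minus WT, of each tested gene at its brightest probe set, in chromosome order from the 25th gene before to the 25th after Bcl2l14, with bars of 1 SE of the limma fit and a star where the adjusted p was under 0.05. The 50 tested genes lie between -3.18 (Clec2h) and 1.21 (Parp11), and Bcl2l14 is drawn at 2.03, the value it was selected by, with the WT arrays Absent.

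The genes whose signals over the 4 arrays ran closest to those of Bcl2l14 lay in other places. Likeness was the root mean square difference of centred log2 signals, and since all 4 arrays enter it, a large G9aKO to WT difference is part of it by construction. At its brighter probe set, the one used here, Bcl2l14 itself was Absent on both WT arrays, so that the order of near values carries little. The 5 nearest were Grip1 (0.112), a scaffold protein none of whose signals exceeded the level under which 95% of Absent probe sets lay, Abcd2 (0.130), a peroxisomal fatty acid transporter, Qpct (0.145), a glutaminyl cyclase, Mmd2 (0.180) and Ccdc71l (0.190). Abcd2, for example, gave 119.4 and 166.1 in WT liver and 587.4 and 771.2 in G9aKO liver. The 6 neighbours in the fit lay from 0.759 for Cdkn1b to 1.05 for Etv6. Mansc1, which was not among the genes ranked, lay at 0.541, with none of its signals above the level of most Absent probe sets.

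Other Bcl-2 family genes had no call in either direction, which at 0.386% called over all genes does not set them apart. Of the anti-apoptotic genes 0 of 4 tested passed, with a median log2 difference of -0.03; Mcl1, which restrains Bak, gave 3345 and 3612 in WT and 3476 and 3049 in G9aKO liver. Of the effectors of membrane permeabilisation 0 of 2 passed, Bok (0.14) and Bak1 (0.08), of which 1 fell below 0 with centring and with quantile normalization. Of the BH3-only genes, which set off the effectors, 0 of 8 passed, with a median of -0.15. Their smallest p-values belonged to Bmf (0.64, limma adjusted p = 0.501), Bik (-0.60, 0.540) and Bcl2l11, which encodes Bim (0.36, 0.548). Bcl2l13, a mitochondrial family member, was at -0.27. The median over all genes was 0.02, and -0.10 with centring.

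Among 21 tested p53 target genes 0 passed, against 0.386% of all genes. Of them 17 were above 0 (16 with centring), against 5528 of 10350 genes (3682 with centring), with a median of 0.27 against 0.02 over all genes. Btg2, an antiproliferative gene, gave 331.1 and 468.9 in WT liver and 1778 and 839.7 in G9aKO liver (log2 difference 1.63, limma adjusted p = 0.234). Cdkn1a, which encodes p21, gave 1504 and 680.0 in WT and 3821 and 1321 in G9aKO liver (1.15, limma adjusted p = 0.562), and its groups overlapped. Phlda3, an inhibitor of Akt, was at 0.73 (limma adjusted p = 0.453) and Trp53inp1 at 0.35 (limma adjusted p = 0.397).

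The pathway relatives of the neighbours had no call either, again against 0.386% of all genes. Centring turned the medians of the Wnt (-0.063), phosphatase (-0.014) and ETS (-0.015) lists below 0, against -0.10 over all genes. Of the cyclin-dependent kinase inhibitors other than Cdkn1b 0 of 3 passed, Cdkn1a, Cdkn2c (0.16) and Cdkn3, which was Absent on both G9aKO arrays (at least 1.65-fold higher in WT liver). Of the Wnt genes grouped with Lrp6 0 of 21 passed (median 0.06), among them the secreted Dkk3 (0.73) and the receptor Lgr5 (0.41). Lrp5, the paralog of Lrp6 and 1 of the 21, was Absent on both WT arrays and dim throughout. It was at least 2.62-fold higher in G9aKO liver (limma adjusted p = 0.461) and entered the fit only through the G9aKO arrays. Of the MAP kinase phosphatases grouped with Dusp16 0 of 4 passed (median 0.11), namely Dusp6 (0.41), Dusp1 (0.55), Dusp4 (-0.44) and Dusp10. Of the ETS factors and corepressors grouped with Etv6 0 of 9 passed (median 0.11), with Etv3 at 0.38, Fli1 at 0.44 and Hdac3 at 0.11.

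Markers of other cell types were read on the same arrays, and none passed the test, against 0.386% of all genes. Over all genes, 5528 of 10350 were above 0, or 3682 with centring. Not every list leaned upward: 2 of 6 sinusoidal endothelial markers (median -0.07) and 2 of 4 B and plasma cell markers were above 0. The 1 tested T and NK cell marker was at -0.46. The 2 tested dendritic cell markers were above 0, but Itgax was Absent on both WT arrays and entered the fit only through the G9aKO arrays. The 2 tested neutrophil markers were above 0 (1 with centring), with sums of 1005 and 609 in WT and 2265 and 319 in G9aKO liver that overlapped. The summed signal of 3 tested biliary epithelial markers was 386 and 292 in WT liver and 932 and 654 in G9aKO liver, and 3 of 3 were above 0, among them Pkhd1 (1.96) and Sox9 (0.71). The defining genes Krt19, Krt7 and Epcam were not Present on 2 arrays. The 13 macrophage and Kupffer cell markers were all above 0 (median 0.43), with sums of 41123 and 58168 in WT and 85847 and 55431 in G9aKO liver that overlapped. The 8 stellate cell and fibroblast markers were all above 0 (median 0.60, or 7 of them with centring), with overlapping sums of 10977 to 15576 and 12665 to 20545. The 4 tested intestinal and mucosal markers summed to 7290 and 10068 in WT and 14090 and 13855 in G9aKO liver. Tff3 set this apart, with 475.6 and 216.8 in WT liver (both Absent) and 8424 and 3083 in G9aKO liver, at least 15.9-fold higher (limma adjusted p = 0.0718). Tff3 entered the fit only through the G9aKO arrays, where it was high, so that this p is not read as support. Without Tff3 the sums overlapped, at 6814 and 9851 against 5666 and 10772, and Fabp2, the brightest, was at -0.15. Cdx2 and Krt20 were not Present on 2 arrays. The 10 hepatocyte markers, led by Apoa1 and Ttr, summed to 510964 to 537478 in WT and 481071 to 546317 in G9aKO liver. The part of these cells in the Bcl2l14 difference was not tested.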

How the data were processed

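RNA of non-tumorous liver from 2 WT and 2 G9aKO mice was hybridised to 1 array each, and groups were taken from the submitters' labels. The authors made the deposited signals with MAS5, of a version not stated in the sources; they are intensities on a linear scale, with a detection p-value for each probe set that the authors' software turned into a call. The trimmed mean signal was 500.0 on every array. The series matrix differed from the array files by at most 5e-06 of a signal. Depth has no counterpart on arrays, and their number limits the precision; the exact permutation test of 2 against 2 cannot go below 0.33. The labels do not number, pair or batch the mice, so that replicate numbers follow accession order.

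Of 45101 probe sets, 64 were controls, 34945 named 1 gene, 932 several and 9160 none; those with several were left unnamed. Log2 signals, with no pseudocount, of 17158 probe sets that name 1 gene and were Present on at least 2 arrays were fitted with lmFit and eBayes (mean-variance trend, two-sided) of limma 3.58.1 in R 4.3.3, with 2 residual degrees of freedom, and adjusted by Benjamini-Hochberg over all of them at 0.05. The same fit was run over 10350 genes at their brightest probe set, which gave the values of genes outside the locus. Python 3.11.15 with pandas 2.3.3 was used for the rest. The limma fit was tested on simulated log2 signals.

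Bcl2l14 was selected on this contrast, and all members and gene lists were chosen with earlier results of these data known; the lists were described by counts and medians. Named were the 8 genes at every probe set of their own, Ehmt2, the genes between Etv6 and Cdkn1b, the 5 genes most like Bcl2l14, genes past the threshold among 25 on each side, and from the lists the genes past the threshold or else the 3 of smallest p, and the brightest markers. Other genes named are examples chosen after their values were seen. A probe set that was Absent on both arrays of a group gives only a bound there, taken against the mean of the higher of its own signal and the lowest Present signal of each array. Alternatives were no detection filter, detection on all 4 arrays, no trend, centring, quantile normalization, a pseudocount of 16, 1 probe set per gene, each array left out, the series matrix and the methods' t-test. No genome of the array's build was used; gene order and promoter windows are those of RefSeq on GRCm38.p6.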

Additional observations from a re-analysis of the deposited data

How the results depend on the processing

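No neighbour probe set passed in any setting with all 4 arrays (0 higher and 0 lower). The smallest adjusted p of these settings lay between 0.423 and 0.694, and 0 to 3 neighbour probe sets had an unadjusted p under 0.05. The 3 were seen with no detection filter, where 13 neighbour probe sets were tested and 2484 of 34945 probe sets had such a p. Mansc1, Present on 1 array, was among the 3. The counts over all probe sets moved more: 40 higher and 8 lower became 25 and 5 with no detection filter, 0 and 0 with no mean-variance trend (1483 at an unadjusted p under 0.05), 39 and 19 with centring, and 0 and 0 by the methods' t-test after adjustment, with 685 and 667 at its unadjusted threshold. Leaving out 1 array gave 17 (WT replicate 1) to 62 (G9aKO replicate 2) higher and 0 to 22 lower, and 0 to 1 lower among the 50 genes around Bcl2l14, where Clec2h was lost without WT replicate 1 or 2. A lone array is assumed to vary like the other group. Centring turned the log2 differences of Etv6 (-0.070), Lrp6 (-0.019) and Crebl2 (-0.019), and quantile normalization that of Etv6 (-0.017). With centring the median of all probe sets tested was itself -0.11. Leaving out 1 array gave -0.092 to 0.20 for Etv6, -0.056 to 0.27 for Lrp6 and -0.10 to 0.32 for Crebl2. Bcl2l14 ranged from 1.70 to 2.36 and Cdkn1b from 0.41 to 0.68 over the same omissions. The mean over probe sets gave 2.76 for Bcl2l14, 0.08 for Gpr19 and 0.34 for Cdkn1b. No paired analysis was possible because the labels give the mice no numbers. The cause of these shifts was not tested.

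With 2 mice a group, a difference of the size seen at Cdkn1b or Borcs5 is not resolved after adjustment, so that neighbours without a call are not shown to be unchanged. Signals in the range of Absent probe sets, which hold Mansc1 and the dimmer probe sets of Etv6, Dusp16, Crebl2, Gpr19 and Cdkn1b, carry little information on level.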

Other observations

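The partners of G9a and other genes of H3 lysine 9 methylation had no call in either direction. Of 9 tested, 0 passed the limma threshold, against 0.386% of all genes, with a median log2 difference of 0.05 against 0.02 over all genes. The methyltransferase gene Setdb2 gave 540.7 and 799.2 in WT liver and 524.5 and 396.2 in G9aKO liver (log2 difference -0.53, limma adjusted p = 0.562). Zfp644, a zinc finger partner of G9a, was at 0.30 (limma adjusted p = 0.575), and Cdyl, a chromodomain protein that binds the mark, at -0.34 (limma adjusted p = 0.600).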
